A study of Mus musculus with 2 samples.

Results

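The 10 paternally expressed imprinted genes Igf2, Dlk1, Peg3, Peg10, Mest, Snrpn, Plagl1, Impact, Ndn and Slc38a4, were followed through every lineage of E8.5 chimeric mouse embryos. They were chosen by name, with earlier results of these data known, as genes known to be read from the copy inherited from the father, and all 10 were found among the 29453 genes of the spliced and unspliced count matrices. The embryos had been made by injecting embryonic stem cells (ESCs), which carried tdTomato and an inactive Gata1, into C57BL/6 blastocysts at E3.5. The stem cells came from 1 clone in which a 38-bp frameshift in exon 4, made with Cas9, had removed the function of Gata1, an erythroid transcription factor on the X chromosome. They had been kept in 2i with LIF, and their parent line, which was male, came from blastocysts of a cross of a ROSA26tdTomato male with a C57BL/6 female. A pool of 6 embryos was dissociated and sorted into 1 tdTom+ sample (injected, Gata1-; labelled E8.5) and 1 tdTom- sample (wildtype host; labelled E8.6), each read as 1 droplet-based library. The fractions therefore differ in Gata1, in the strain cross and culture history of the cells, in 1 clone against several host embryos, in sex (a male line against host cells with Xist, which was lower in tdTom+ cells in every lineage, with a median log2 fold of -6.42), and in the library, and these cannot be told apart.

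An imprinted gene is read wholly or mainly from 1 parental copy. For many such genes, DNA methylation laid down in the egg or the sperm marks a control region on 1 of the copies. This methylation is kept through the cell divisions of the embryo. Imprinted genes often sit in groups under a shared control region, and within such a group some genes are read from the father's copy and others from the mother's. Several paternally expressed members promote growth of the fetus and placenta.

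The libraries held 8981 tdTom+ and 9252 tdTom- cells, with 167940767 and 157174026 spliced UMIs (counted molecules) and medians of 17598 and 15996 per cell. After doublet calls were left out, 8590 and 8720 cells remained, and 18 cell barcodes occurred in both libraries. Clusters were built without the 47 imprinted genes of the lists used here, and 19 lineages with at least 50 cells of each fraction were compared. Of these, 14 were named from their markers, of which at least 3 had to be raised, and 5 are called by their leading genes. Almost all cells called erythroid-like were tdTom- (3 tdTom+ and 1407 tdTom- cells) and almost all blood progenitor-like cells were tdTom+ (1326 and 2 cells), so that neither was compared. The cluster led by Fcer1g and Spi1 (294 and 68 cells), in which 6 of 7 blood progenitor markers and 5 myeloid markers were raised, was compared. Levels are given in CPM, in which the spliced UMIs of a gene, summed over the cells of a lineage, are scaled to counts per 1000000 of the total of that lineage. Where levels of both fractions are set side by side, that of tdTom+ cells comes first, and folds are tdTom+ over tdTom-. The intervals in brackets are exact 95% intervals and cover counting error only. Gata1 itself, summed over all kept cells and so over unequal numbers of erythroid-like cells, stood at 6.47 against 27.9 CPM (log2 fold -2.11, -2.21 to -2.01), while its unspliced UMIs were more in tdTom+ cells, 1372 against 361. These counts do not read the frameshift. With 1 library per fraction, no difference has a replicate check and none was tested.

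Over all kept cells, 6 of the 10 genes were more than 2-fold higher in tdTom+ cells (Impact, Peg10, Slc38a4, Peg3, Mest and Plagl1), none was more than 2-fold lower, and 4 lay between (Snrpn, Ndn, Dlk1 and Igf2). Of all 13704 genes with at least 100 UMIs, 1.71% were past 2-fold higher and 2.3% past 2-fold lower. The median log2 fold of the 10 genes was 1.06, that of all 13704 genes -0.01. When the log2 folds within lineages were averaged instead, 2 of the 10 genes (Peg10 and Impact) were past 2-fold. The cause of the difference was not tested. Within lineages, the genes had at least 100 UMIs in 161 pairs of gene and lineage. Of these, 48 were past 2-fold higher and 8, all of them Igf2, past 2-fold lower. Of the 137192 such pairs of all genes, 0.293% were past 2-fold higher and 0.538% lower. The genes fell into 3 sets, with Impact, Peg10, Peg3, Mest, Slc38a4 and Plagl1 higher, Snrpn and Ndn close to equal, and Igf2 and Dlk1 lower in tdTom+ cells.

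**Figure D1:**
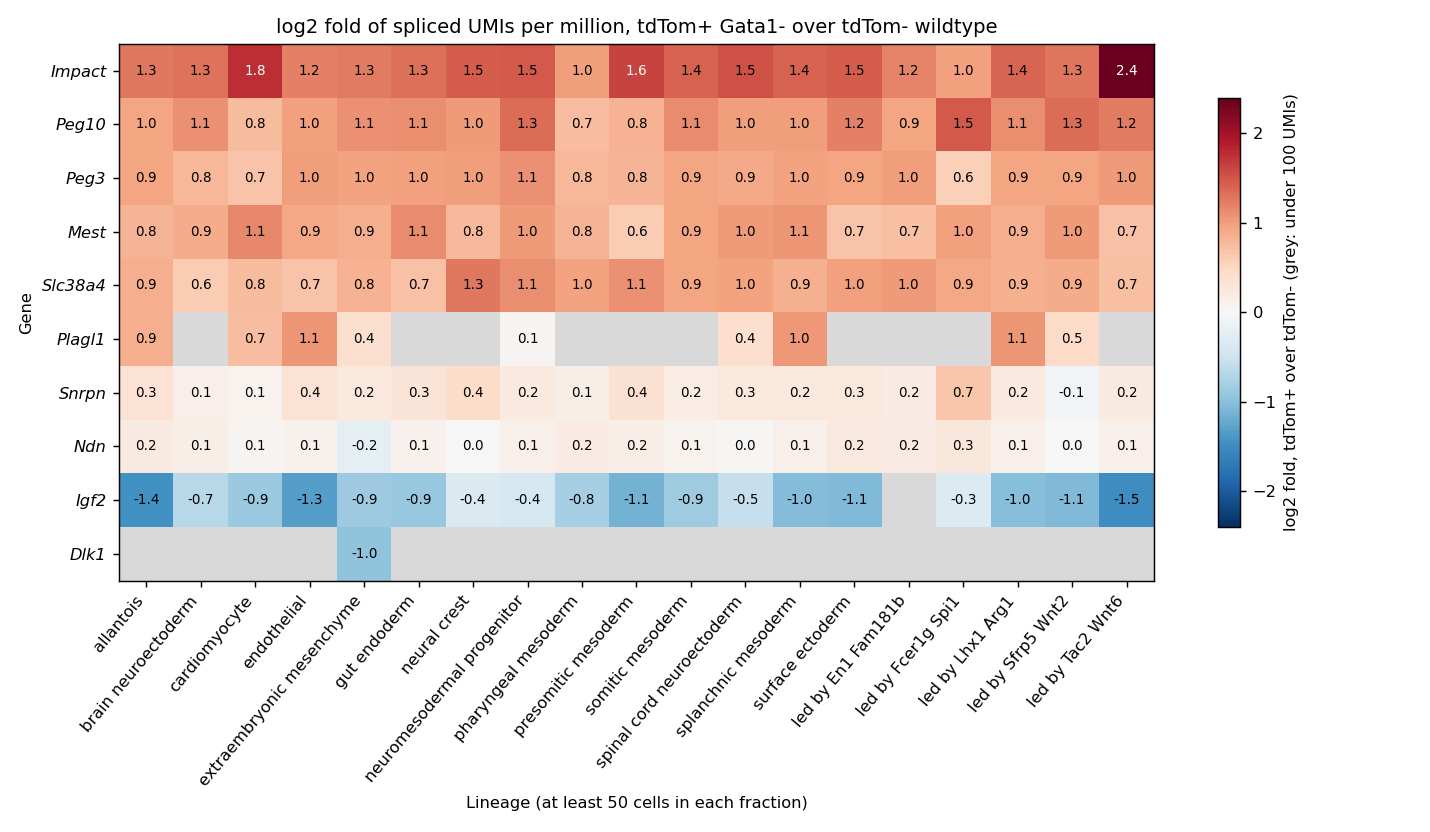
The heat map gives the log2 fold of spliced CPM (tdTom+ over tdTom-) of each gene (rows) in each of 19 lineages (columns), with grey where a gene had fewer than 100 UMIs over both fractions. The rows of Impact, Peg10, Peg3, Mest and Slc38a4 are red throughout, from 0.58 to 2.37, the row of Igf2 is blue wherever it was read, from -1.48 to -0.34, and Snrpn and Ndn stay within 0.66 of 0.

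The promoters of 3 members are shown for comparison, Mest and Slc38a4 as genes that were both higher in tdTom+ cells and Igf2 as the gene that was lower. Each is the 250 bases before a transcript start in RefSeq (GRCm38.p6), 5′ to 3′ on the strand of the gene, and none of the 3 windows overlaps an annotated exon. Capitals mark matches to TGCCGC, the short motif bound by ZFP57, which guards imprint methylation, searched on both strands.
Mest (chr6:30737800-30738049, plus strand): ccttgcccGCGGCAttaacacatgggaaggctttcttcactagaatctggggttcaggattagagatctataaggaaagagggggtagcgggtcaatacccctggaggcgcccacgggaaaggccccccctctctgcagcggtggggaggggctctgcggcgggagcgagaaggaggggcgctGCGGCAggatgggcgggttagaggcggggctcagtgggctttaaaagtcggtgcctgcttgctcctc
Slc38a4 (chr15:97055957-97056206, minus strand): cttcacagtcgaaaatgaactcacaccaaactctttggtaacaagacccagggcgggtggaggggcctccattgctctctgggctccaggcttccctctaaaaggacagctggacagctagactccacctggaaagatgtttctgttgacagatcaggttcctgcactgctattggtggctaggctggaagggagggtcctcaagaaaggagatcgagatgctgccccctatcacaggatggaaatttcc
Igf2 (chr7:142657497-142657746, minus strand): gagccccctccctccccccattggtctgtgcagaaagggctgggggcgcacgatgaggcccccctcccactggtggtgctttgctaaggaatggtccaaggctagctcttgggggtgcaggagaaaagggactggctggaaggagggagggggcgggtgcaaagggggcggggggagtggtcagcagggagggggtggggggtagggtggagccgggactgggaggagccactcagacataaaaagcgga
The Mest window held 2 matches and 14 CpG pairs, the Slc38a4 window 0 matches and 3 CpG pairs, and the Igf2 window 0 matches and 6 CpG pairs. Mest has 3 windows, Slc38a4 3 and Igf2 4, of which 1 each is printed. The most CpG pairs in any window of these genes were 14, 5 and 22. The order of the genes by CpG pairs thus depends on the window. Of the 18 windows found for 8 of the members, 3 held the motif, of which 2 are overlapping windows of Mest and 1 is that of Plagl1. Of all 32851 RefSeq promoter windows of this length, 8.68% held it. A match is a string of letters and not a binding site, and these windows need not be the control regions of the genes.

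Impact, a regulator of the translational stress response, differed most among the genes that were higher in tdTom+ cells, at 135 against 46.6 CPM over all kept cells. Within lineages, its log2 fold had a median of 1.40 (2.64-fold; SD 0.30 over 19 lineages) and was past 2-fold in 18 of 19. The exception was the cluster led by Fcer1g and Spi1, at 64.9 against 32.7 CPM (0.99, 0.51 to 1.51). In that cluster 2.98% of all genes were past 2-fold higher, the largest share among the 19 lineages. The largest fold was found in the cluster led by Tac2 and Wnt6, at 240 CPM from 460 UMIs against 46.2 CPM from 38 UMIs (2.37, 1.89 to 2.89). Levels of Impact varied little among the 19 compared lineages, from 32.7 to 97.3 CPM in tdTom- cells, with the highest level in extraembryonic mesenchyme-like cells. Erythroid-like and extraembryonic ectoderm-like tdTom- cells, which were not compared, had less, as given below. In spinal cord neuroectoderm-like cells, at equal depth of 5000 UMIs per cell, an Impact UMI was found in 46.3% (42.3% to 50.4%) of 611 tdTom+ cells and in 21.0% (18.3% to 23.9%) of 838 tdTom- cells (82.3% and 45.0% without thinning). Free RNA would give 5.43 and 1.57 CPM of Impact, below its level in every lineage.

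Peg10, a gag- and pol-like gene derived from a retrotransposon and needed for the placenta, occupies bases 4747306 to 4760517 of chromosome 6 (GRCm38, plus). Among the 19 compared lineages, its level set the allantois apart, at 915 against 472 CPM. The level in extraembryonic ectoderm-like tdTom- cells, which were not compared, was also high and is given below. The cluster led by Fcer1g and Spi1 had 37.0 against 13.4 CPM. In tdTom+ cells the lowest level of the compared lineages was that of presomitic mesoderm-like cells, at 32.0 CPM. The order of lineages was alike but not identical, with a Spearman rho of 0.98 between the fractions over the 19 lineages. The log2 fold of Peg10 was above 0 in every lineage, with a median of 1.09 (2.13-fold), a range from 0.74 in pharyngeal mesoderm-like cells to 1.46 in the cluster led by Fcer1g and Spi1, and 12 of 19 lineages past 2-fold. In allantois-like cells it was 0.96 (0.90 to 1.01). For 15 of 19 lineages the interval held a log2 fold of 1.

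Peg3, a zinc-finger protein of growth and maternal behaviour, occupies bases 6703892 to 6730431 of chromosome 7 (minus strand). It was highest in extraembryonic mesenchyme-like cells, at 2763 CPM from 31512 UMIs against 1407 CPM from 9879 UMIs (0.97, 0.94 to 1.01). In tdTom- cells, the clusters led by Sfrp5 and Wnt2 (1234 CPM) and by Tac2 and Wnt6 (1230 CPM) followed and did not differ beyond counting error. Of the 19 compared lineages, the level was lowest in the cluster led by Fcer1g and Spi1 (87.6 against 58.7 CPM). It was low in spinal cord neuroectoderm-like cells, at 144 against 77.3 CPM (0.90, 0.79 to 1.02). Across this range of levels, the log2 fold had a median of 0.95 (1.93-fold; SD 0.13) and ran from 0.58 to 1.10, and 5 of 19 lineages were past 2-fold. The lower end was that of the cluster led by Fcer1g and Spi1, where free RNA would give 40.8 of the 87.6 CPM and 14.9 of the 58.7 CPM. With these subtracted, 46.8 stood against 43.8 CPM, and the log2 fold was 0.10. The estimate, made in neural cells, was too high for Mest in other blood cells, as given below, and may subtract too much here. Subtraction left 1 of 19 lineages past 2-fold.

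Mest, a hydrolase-like protein of mesoderm, spans 30723547 to 30748465 of chromosome 6 (plus strand) and was the most abundant of the 10 genes in counts, which are not scaled to gene length. Endothelial-like cells had 4005 against 2118 CPM, and extraembryonic mesenchyme-like cells 3957 against 2173 CPM. Among the 19 compared lineages, the lowest levels were those of presomitic mesoderm-like cells, at 251 against 165 CPM (0.60, 0.48 to 0.72). Mesoderm was thus not uniform in Mest, since somitic mesoderm-like cells had 1307 against 678 CPM. The fold was above 0 in all 19 lineages, with a median of 0.89 (1.86-fold; SD 0.15) and a maximum of 1.15 (1.09 to 1.21) in cardiomyocyte-like cells. In 6 of 19 lineages it was past 2-fold.

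In the 2 lineages with the highest Mest, the 10th percentile, median and 90th percentile of cells were higher in tdTom+ cells. At 5000 UMIs per cell, the 486 endothelial-like tdTom+ cells had a median of 19.5 Mest UMIs (10th to 90th percentile 11 to 33), and the 360 tdTom- cells a median of 11 (4 to 17). In extraembryonic mesenchyme-like cells the medians were 20 (11 to 28) and 10 (5 to 17), and every cell of both fractions held at least 1 Mest UMI. In some lineages with less Mest the lower end was not apart at this depth, with a 10th percentile of 1 UMI in both fractions of surface ectoderm-like cells and a median of 0 UMIs in both of presomitic mesoderm-like cells.

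Slc38a4, a transporter of amino acids in liver and placenta, occupies bases 96994820 to 97055956 of chromosome 15 (minus strand). As for Peg10, the allantois had the highest level of the 19 compared lineages, at 764 against 419 CPM. The lowest of these lineages were brain neuroectoderm-like tdTom+ cells (30.4 CPM) and spinal cord neuroectoderm-like tdTom- cells (18.8 CPM). The log2 fold had a median of 0.89 (1.85-fold; SD 0.16) and was above 0 in all 19 lineages, from 0.60 (0.21 to 0.99) in brain neuroectoderm-like to 1.27 (0.99 to 1.56) in neural crest-like cells. Of the 19 lineages, 4 were past 2-fold. Across lineages, over all kept cells, the fold was larger, at 1.27, with 172 against 71.1 CPM.

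Plagl1, a zinc-finger transcription factor that restrains proliferation, spans 13060504 to 13131694 of chromosome 10 (plus strand) and varied more in its fold than the genes above. It reached 100 UMIs in 9 lineages, with a median log2 fold of 0.74 and an SD of 0.37. Endothelial-like cells had 137 against 65.4 CPM (1.07, 0.90 to 1.23). In extraembryonic mesenchyme-like cells, where its level was highest, it stood at 141 against 109 CPM (0.38, 0.25 to 0.51). In neuromesodermal progenitor-like cells, 28.4 stood against 27.2 CPM, and the interval of the fold held 0 (0.06, -0.22 to 0.34). The intervals of these 3 lineages do not overlap, except for those of the last pair.

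**Figure D2:**
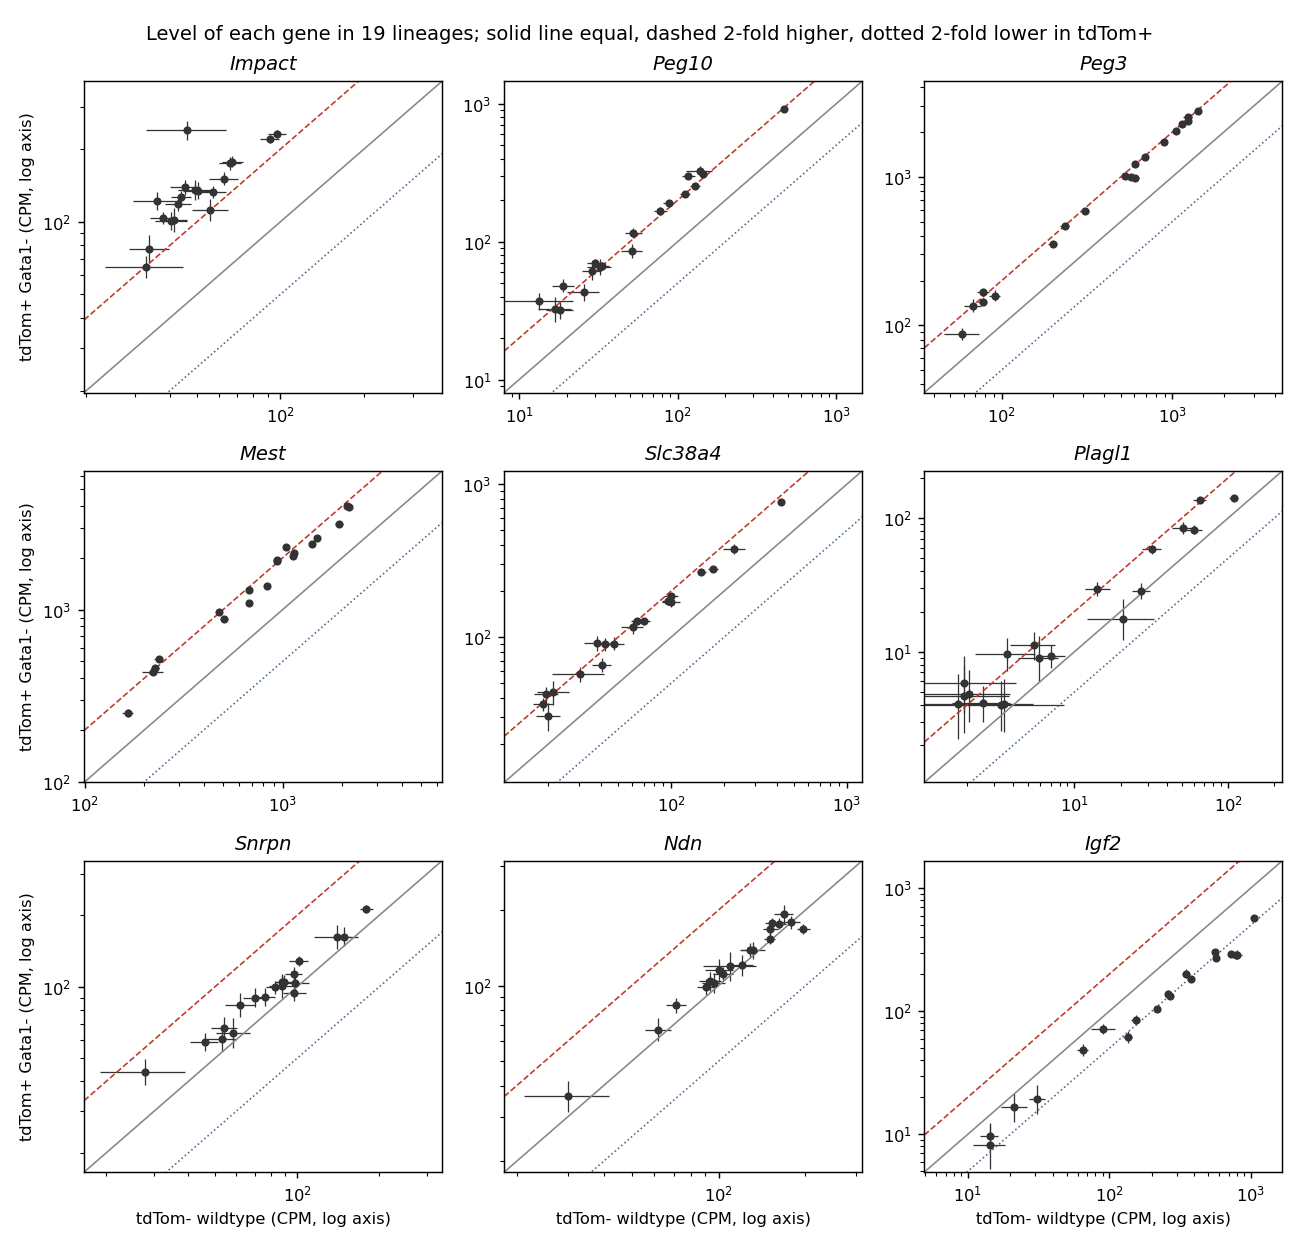
Each panel plots the level of a gene in tdTom+ cells (vertical) against tdTom- cells (horizontal), in CPM on log axes, with a point per lineage (19) and 95% counting intervals as bars, and lines for equal levels, 2-fold higher and 2-fold lower. The points of Peg3, Mest, Peg10 and Slc38a4 lie around the dashed 2-fold line or between it and the line of equal levels, with lowest log2 folds of 0.58, 0.60, 0.74 and 0.60, those of Snrpn and Ndn follow the line of equal levels, and those of Igf2 lie below it.

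Snrpn and Ndn, which belong to the same imprinted region of chromosome 7, were close to equal between the fractions. Snrpn, a small nuclear ribonucleoprotein of the spliceosome, lies from 59982495 to 60140219 (minus strand). Over all kept cells it stood at 96.7 against 80.3 CPM. Its log2 fold had a median of 0.24, ran from -0.06 in the cluster led by Sfrp5 and Wnt2 to 0.66 in the cluster led by Fcer1g and Spi1, and was past 2-fold in 0 of 19 lineages. Snurf and Gm38393 overlap Snrpn on its strand, and Snurf had 0 UMIs, so that reads of these genes may be counted as Snrpn. Ndn, a gene of a single exon for the growth suppressor Necdin, lies from 62346569 to 62350262 (plus strand). Its level was 109 against 100.3 CPM, and its log2 fold had a median of 0.12 and ran from -0.22 (-0.32 to -0.12) in extraembryonic mesenchyme-like cells to 0.27. Although close to equal, Snrpn had an interval above 0 in 12 of 19 lineages and Ndn in 4.

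Igf2, the growth factor of fetal and placental growth, went the other way. It occupies bases 142650766 to 142666816 of chromosome 7 (minus strand), next to H19, a noncoding RNA read from the mother's copy. Over all kept cells it stood at 154 against 247 CPM. In each of the 18 lineages with at least 100 UMIs it was lower in tdTom+ cells, with a median log2 fold of -0.89 (0.539-fold; SD 0.34), and in 8 of them by more than 2-fold. Allantois-like cells had 288 against 785 CPM (-1.45, -1.51 to -1.39). In extraembryonic mesenchyme-like cells, which had the highest level in both fractions, 570 stood against 1048 CPM (-0.88, -0.93 to -0.83). Neural lineages and neural crest-like cells had little Igf2, with 9.76 against 14.3 CPM in spinal cord neuroectoderm-like cells. Free RNA, estimated from genes of heart, yolk sac and red cells in neural cells, would give 6.21 and 8.28 CPM of Igf2, so that these low levels are near background.

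The lower Igf2 of tdTom+ cells was not a shift of all cells. The 8 lineages with at least 300 CPM of Igf2 in tdTom- cells, a threshold chosen after values were seen, were split by cell. In them, tdTom+ cells divided into some with almost no Igf2 and others near or somewhat below the host level. Of 3231 tdTom+ cells, 1567 (48.5%; 34.4% to 58.0% by lineage) had less than 1 Igf2 UMI per 10000 spliced UMIs, against 92 of 2360 tdTom- cells (3.90%; 0% to 12.0% by lineage). The value of 0% is that of 54 tdTom- cells in the cluster led by Tac2 and Wnt6, and allows a share of up to 6.603% (exact). In allantois-like cells the shares were 407 of 723 tdTom+ (56.3%, 52.6% to 59.9%) and 2 of 389 tdTom- cells (0.514%, 0.0623% to 1.84%). In extraembryonic mesenchyme-like cells they were 229 of 666 (34.4%, 30.8% to 38.1%) and 2 of 430 (0.465%, 0.0564% to 1.67%). The cut is a value on a continuous scale, and 385 tdTom+ cells (11.9%) lay between 0.5 and 2 UMIs per 10000.

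Cells without any Igf2 UMI show the same. They made up 24.3% to 46.7% of tdTom+ cells by lineage, where Poisson counting at the mean level of the lineage and the depth of each cell would give 0.483% to 7.14%. Of tdTom- cells, 0% to 4.30% had none, beside 0.0579% to 2.30% from Poisson counting. In tdTom+ cells, depth was similar on both sides of the cut, with medians by lineage of 14988 to 17227 UMIs per cell under it and 15997 to 17287 over it. The few tdTom- cells under the cut, 0 to 31 by lineage, were in part much shallower, with medians of 4254 UMIs under and 16229 over it in allantois-like cells and of 6986 and 15901 in extraembryonic mesenchyme-like cells. At 5000 UMIs per cell, an Igf2 UMI was found in 43.1% (39.4% to 46.8%) of 715 allantois-like tdTom+ cells and in 96.0% (93.5% to 97.8%) of 376 tdTom- cells (53.3% and 99.5% without thinning). The variance of these counts was 3.54 times their mean in tdTom+ and 1.67 times in tdTom- cells. In spinal cord neuroectoderm-like cells, which had little Igf2, it was found in 5.401% of tdTom+ and 6.09% of tdTom- cells (14.8% and 17.2% without thinning).

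The level over the cut was near that of the host in some lineages and lower in others. Over the 8 lineages, tdTom+ cells under the cut had 8.92 to 20.6 CPM of Igf2, where free RNA would give 6.21 CPM, and those over it 355 to 853 CPM. Against all tdTom- cells of the lineage, the log2 fold of the tdTom+ cells over the cut had a median of -0.19 and ran from -0.32 to 0.02. It was -0.30 in both allantois-like and extraembryonic mesenchyme-like cells, and 0.02 in both pharyngeal and splanchnic mesoderm-like cells. These values follow in part from the cut itself and describe the cells rather than test them.

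**Figure D3:**
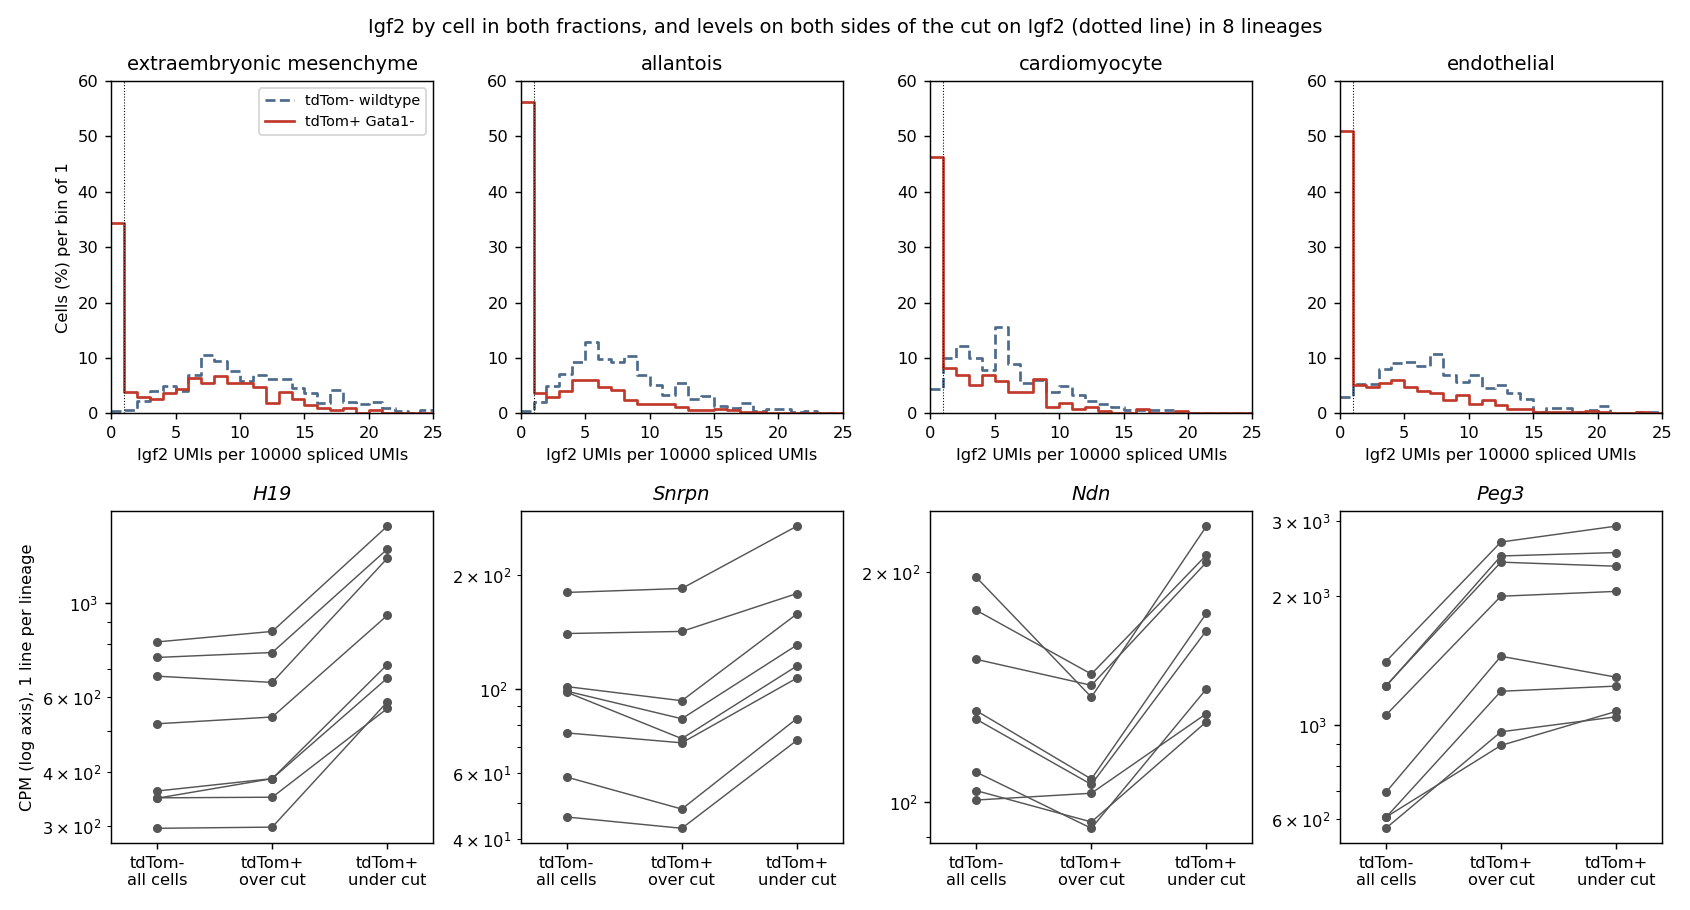
The upper panels give, for 4 lineages, the percent of cells (vertical) by Igf2 UMIs per 10000 spliced UMIs (horizontal), with tdTom+ cells as solid and tdTom- cells as dashed lines and the cut of 1 per 10000 dotted. The lower panels give the CPM (log axis) of H19, Snrpn, Ndn and Peg3 in tdTom- cells and in tdTom+ cells over and under the cut, with a line for each of 8 lineages. The tdTom+ cells have a tall column under 1 per 10000, of 34.4% in extraembryonic mesenchyme-like and 56.3% in allantois-like cells, and H19, Snrpn and Ndn are higher under the cut than over it in all 8 lineages.

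Between the tdTom+ cells under and over the Igf2 cut, most other members differed in both directions among lineages. The median log2 fold over the 8 lineages (under against over) was 0.04 for Peg3 (-0.16 to 0.26 by lineage), 0.14 for Peg10 (-0.32 to 0.44) and -0.08 for Mest (-0.36 to 0.38). Impact had -0.14 (-0.44 to 0.25) and Slc38a4 0.14 (-0.29 to 0.55). Plagl1, read in 5 of the lineages, had 0.22 (-0.18 to 0.70), with 0.97 under and 0.54 over the cut against tdTom- cells. On either side of the cut, the medians of these genes against tdTom- cells were above 0, for example with a median of 0.95 for Peg3 in cells under the cut and of 0.95 in cells over it. Snrpn and Ndn, by contrast, were higher in the cells with almost no Igf2 in 8 of 8 lineages, with medians of 0.64 (0.33 to 0.79 by lineage) and 0.57 (0.35 to 0.74). So was H19, with a median of 0.81 (0.69 to 0.98).

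In extraembryonic mesenchyme-like cells, H19 was at 1513 CPM in tdTom+ cells under the cut, 857 CPM in tdTom+ cells over it and 809 CPM in tdTom- cells. Snrpn had 269, 184 and 180 CPM in the same order, and Ndn 230, 137 and 197 CPM. In allantois-like cells, H19 had 1336, 764 and 744 CPM, Snrpn 158, 93.0 and 101 CPM, and Ndn 206, 142 and 154 CPM. H19 over the cut was thus close to the host, with a median of 0.05 against tdTom- cells (-0.05 to 0.15 by lineage). Snrpn had a median of -0.11 (-0.41 to 0.03) and was above 0 in 2 of 8 lineages. Ndn had -0.26 (-0.52 to 0.03) and was above 0 in 1, and the ranges of these 2 genes overlap. Under the cut, the medians against tdTom- cells were 0.89 for H19, 0.50 for Snrpn and 0.37 for Ndn. In these 8 lineages, the levels of Snrpn and Ndn in tdTom+ cells were thus sums over cells that differed from each other, and the other 11 lineages were not split.

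Of 4647 genes with at least 100 UMIs in 6 or more of the 8 lineages, H19, Snrpn and Ndn were the 3 (0.0646%) whose median log2 fold between the sides was over 0.4, a threshold set after values were seen. With the cut at 0.5 UMIs per 10000, Ndn had 0.39 and was no longer over it. Igf2, which made the cut, was the 1 gene (0.0215%) under -0.4, and the next by size was Bcar1, at -0.39. Too few UMIs kept the maternally expressed Cdkn1c and Grb10 out of these 4647 genes. They had 145 and 89 UMIs under and 270 and 171 over the cut. Against the numbers expected from the levels over the cut by lineage, the log2 fold was -0.91 for both. By lineage they went in both directions, with Cdkn1c at 1.96 against 19.2 CPM in endothelial-like and 14.7 against 11.2 CPM in allantois-like cells. Peg12, a further paternally expressed gene of the region of Snrpn and Ndn, had a median of 0.57 over the 4 lineages where it could be read, each above 0, with 486 UMIs under and 317 over the cut in all. Kcnq1ot1, the paternally expressed RNA of the next imprinted group on chromosome 7 beyond Igf2, had a median of 0.11.

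Dlk1, a ligand that inhibits Notch signalling and occupies bases 109452823 to 109463336 of chromosome 12 (plus strand), could hardly be read from these matrices. Over all kept cells it had 150 UMIs in tdTom+ and 193 UMIs in tdTom- cells (0.969 and 1.36 CPM). The deposited gene totals of Cell Ranger, the tool that counted all reads, give it 31136 UMIs, so that the spliced matrix kept 1.17%, against a median of 108% (spliced plus unspliced) over 14561 genes. Of these genes, 436 (2.99%) kept under 10%. Extraembryonic mesenchyme-like cells were the 1 lineage with at least 100 Dlk1 UMIs, at 5.70 against 11.1 CPM (-0.96, -1.46 to -0.47). Allantois-like cells, with 35 and 33 UMIs, had 2.72 against 5.07 CPM. The other 9 members kept 82.6% to 126%.

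Unspliced transcripts, which hold introns, gave a second reading of most genes. In all kept cells, their log2 folds beside the spliced ones were 1.07 and 1.20 for Peg3, 1.48 and 1.39 for Peg10, 1.04 and 1.07 for Mest, 1.28 and 1.27 for Slc38a4 and 1.07 and 1.06 for Plagl1. Impact had a smaller fold in unspliced than in spliced UMIs, with 1.19 and 1.53. Its unspliced share was 8.501% in tdTom+ and 10.8% in tdTom- cells. Igf2 was lower in both layers, with -0.72 and -0.68. Among the members with unspliced UMIs, the unspliced share ranged from 1.25% for Peg3 to 32.4% for Plagl1 in tdTom+ cells. Ndn, which has no intron, and Dlk1 had 0 unspliced UMIs. Among maternally expressed genes, Igf2r, Kcnq1 and Tfpi2 differed in direction between the layers, the last 2 on few UMIs in 1 of them. Igf2r had a spliced log2 fold of -2.20 and an unspliced one of 0.80, and Kcnq1 had 2 against 15 spliced and 12796 against 6273 unspliced UMIs (unspliced log2 fold 0.95). Tfpi2 had 60 against 36 spliced and 4 against 7 unspliced UMIs. Kcnq1ot1 is the paternally expressed RNA antisense to Kcnq1. Airn, the paternally expressed RNA that runs antisense across Igf2r, had an unspliced log2 fold of 1.30, and whether the unspliced counting kept the strands apart is not given in the sources used here.

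**Figure D4:**
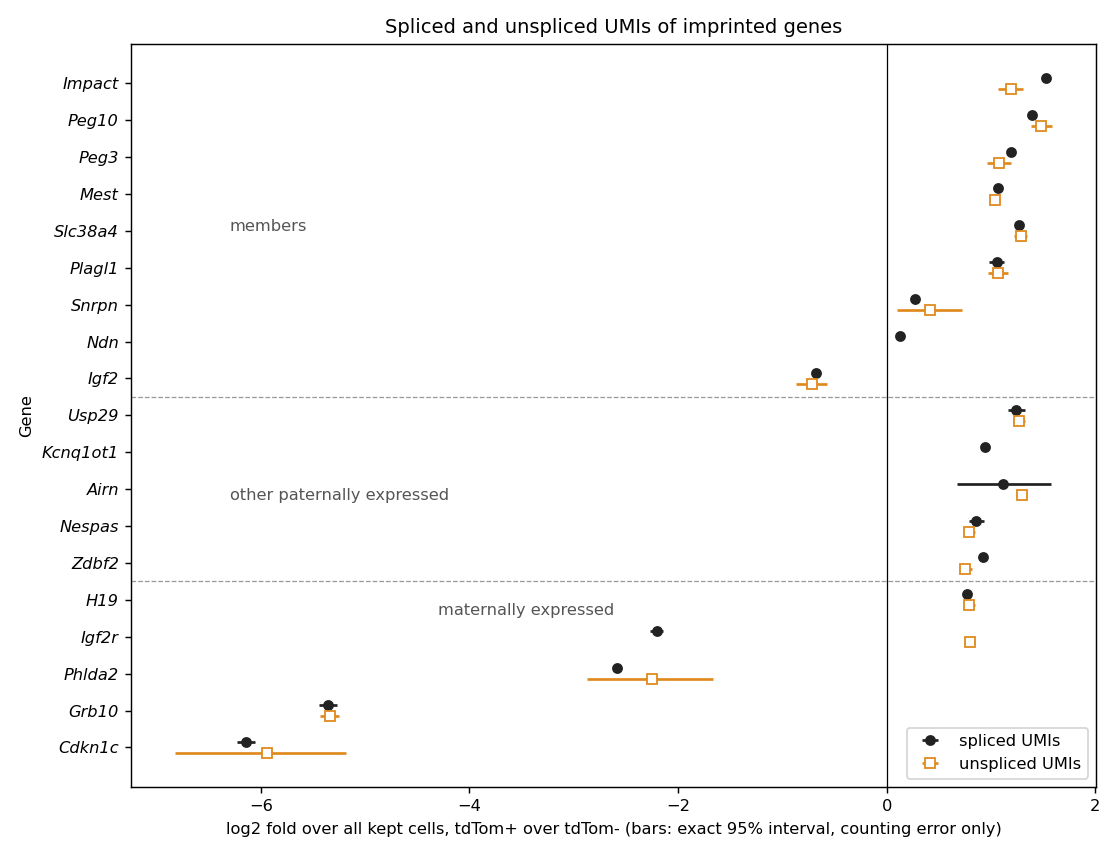
For each gene (rows), the log2 fold over all kept cells (horizontal, tdTom+ over tdTom-) is drawn for spliced UMIs (filled circles) and unspliced UMIs (open squares), with exact 95% counting intervals as bars. The marks of most members lie close together, with those of Impact at 1.53 spliced and 1.19 unspliced, while those of Igf2r lie on opposite sides of 0, at -2.20 spliced and 0.80 unspliced.

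Other imprinted genes were read by lists. Of 25 further paternally expressed genes, 21 were in the matrices and 14 had at least 100 UMIs, of which 4 were past 2-fold higher (Usp29, Airn, Zrsr1 and Nap1l5), 2 past 2-fold lower (Sfmbt2 and Dio3) and 8 neither, with a median log2 fold of 0.77. Within the compared lineages, Sfmbt2 and Airn reached 100 spliced UMIs in 0 and Dio3 in 1. Their folds are thus read over all kept cells, which hold unequal numbers of cells by type. Usp29, which shares its promoter region with Peg3, stood at 27.2 against 11.5 CPM (1.24, 1.16 to 1.33). Sgce, on chromosome 6 as is Peg10, had 36.5 against 24.8 CPM (0.56, 0.50 to 0.62). Within lineages Sgce was higher in 17 of 18 and lower in 1 (-0.59). Of 14 maternally expressed genes tested, 0 were past 2-fold higher and 8 lower, with a median of -1.75. Cdkn1c, a cell cycle inhibitor, was at 6.66 against 470 CPM (log2 fold -6.14) and Grb10, an adaptor that dampens growth factor signals, at 6.95 against 284 CPM (-5.35). Zim1 (-4.76), Slc22a18 (-3.49), Ascl2 (-2.81), Phlda2 (-2.59), Igf2r (-2.20) and Asb4 (-1.31) were also lower. Of these, Slc22a18 and Ascl2 reached 100 UMIs in 0 of the compared lineages and Zim1 in 1. Sums over all kept cells cover unequal cell types, such as 1 tdTom+ and 75 tdTom- extraembryonic ectoderm-like cells. The part of cell composition in these folds was not tested. H19 (438 against 257 CPM, 0.77) and Meg3 (8.42 against 4.99 CPM, 0.76) were higher in tdTom+ cells. Of the Cell Ranger UMIs, the matrices kept 0.957% for Meg3, 55.8% for H19 and 53.7% for Kcnq1ot1. Mcts2, of the paternal list, had 33383 Cell Ranger UMIs but 0 in the matrices, so that a listed gene not read here need not be silent. The background for the counts of genes past 2-fold is that given above for all kept cells.

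The genes that differed by more than 0.5 in log2 fold in every lineage were few. The threshold was chosen after values were seen, and these genes are a description. Of 6062 genes with at least 100 UMIs in 15 or more lineages, 8 (0.132%) were higher by over 0.5 in each lineage tested. They were Impact, Peg10, Peg3, Mest and Slc38a4, the paternally expressed Usp29 and Kcnq1ot1, and Erdr1, which is listed on chromosome Y. With free RNA subtracted, 5 genes remained, of which 2 were members (Peg10 and Impact). Peg3, Mest and Slc38a4 were then over 0.5 in 18 of 19 lineages each, with lowest log2 folds of 0.10, 0.43 in presomitic mesoderm-like cells and 0.41 in brain neuroectoderm-like cells. At a threshold of 0.3 there were 12 genes with the same 5 members, and at 0.7 there were 4, with Peg10 and Impact as the members. Of the 8 members among the 6062 genes, Snrpn, Ndn and Igf2 were not among them. Lower by over 0.5 in each lineage tested were 23 genes (0.379%), with 0 members, 4 genes of the maternal list (Cdkn1c, Grb10, Phlda2 and Igf2r) and 15 genes of chromosome 3. The middle 95% of the medians over lineages of all 6062 genes ran from -0.30 to 0.21, and all of the 8 members but Ndn lay outside it, Snrpn, at 0.24, just beyond its upper end.

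**Figure D5:**
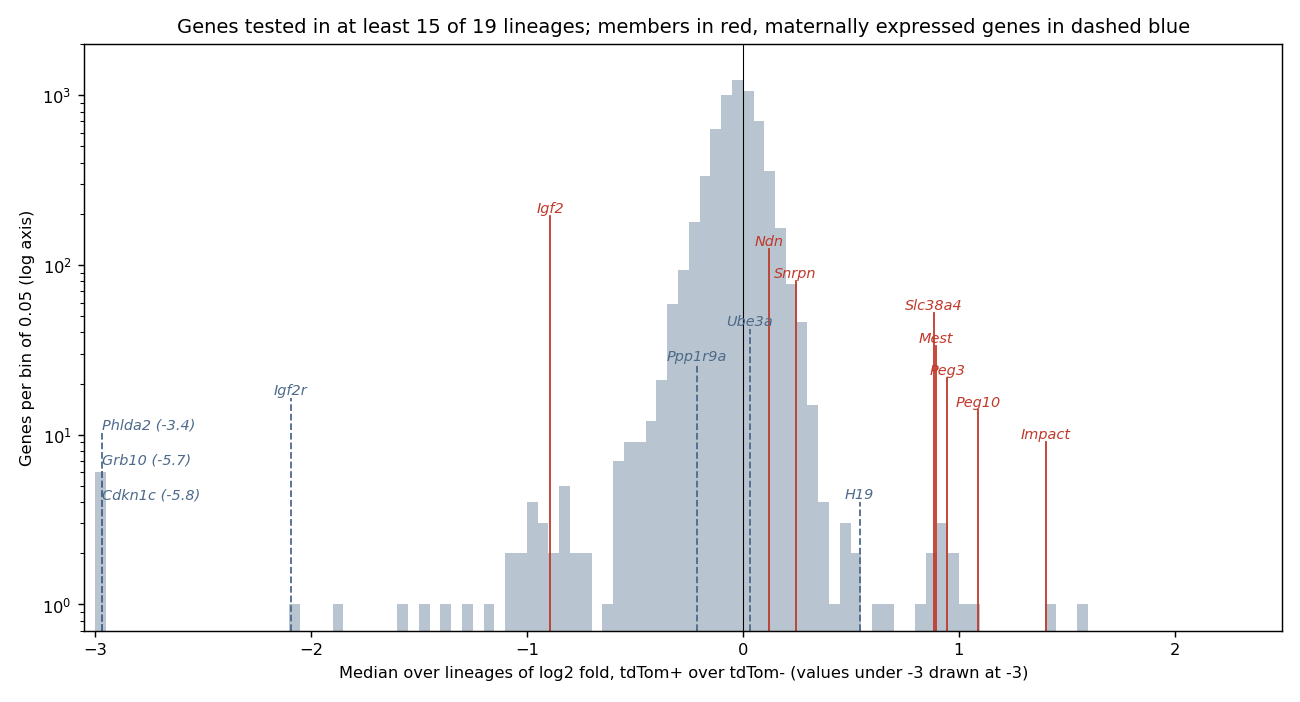
The histogram counts genes (log axis) by the median over lineages of their log2 fold, for 6062 genes read in at least 15 of 19 lineages, with members as red and maternally expressed genes as dashed blue lines. Most genes lie between -0.30 and 0.21, while Mest, Slc38a4, Peg3, Peg10 and Impact stand at 0.89 to 1.40 and Igf2 at -0.89.

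The nearest genes read on either side of the members, other than those of the imprinted lists used here, were mostly near 0. Many lay far off, at distances from 14.01 kb (Osbpl1a from Impact) to 6414 kb (Cyfip1 from Ndn), and those of Snrpn and Ndn were all at least 1536 kb away. Up to 3 protein-coding genes were taken on each side of each member (2 on the left of Peg10, and the same 6 for Snrpn and Ndn), which made 53 different genes. The median of their medians over lineages was -0.04. The range ran from -0.57 for Phactr2, which lies 76.0 kb from Plagl1, to 0.39 for Riok3, 798 kb from Impact, and 5 genes were over 0.3 in size. Osbpl1a had 0.38, and Cd81, 386 kb from Igf2, had -0.34. Cd81 and its neighbour Tssc4 (-0.30) lie in an imprinted group and have themselves been described as imprinted, so that the neighbours are not all unimprinted genes.

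Genes that maintain imprints were close to equal as a list, with a median log2 fold of 0.01. Of 13 such genes, 1 was past 2-fold higher (Dppa3, 1.13, at under 1 CPM in both fractions), 1 lower (Dnmt3l, -3.95, at 0.0904 against 1.45 CPM) and 11 neither. The zinc-finger protein Zfp57 had 8.42 against 8.06 CPM (0.06), the DNA methylase Dnmt3b 90.9 against 82.4 CPM (0.14), and Ctcf, which binds the control region of H19 and Igf2, 93.6 against 86.8 CPM (0.11). Of 13 genes of the IGF pathway, Igf2r, the receptor that clears Igf2, was past 2-fold lower, and 12 were neither. Igf1r, the receptor through which Igf2 signals, had 45.9 against 56.4 CPM (-0.30), the binding protein Igfbp2 168 against 222 CPM (-0.40), and Igf1, the other growth factor of the family, 7.05 against 5.39 CPM (0.39). Over all kept cells, the median of this list was -0.06, near the -0.01 of all genes. Within lineages it lay lower. The 9 genes of the list read in at least 15 lineages had a median of -0.20 of their medians over lineages, against -0.02 for all 6062 such genes.

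In which lineages a gene was high was alike in both fractions, although its level differed. The Spearman rho of levels over the 19 lineages was 0.82 for Impact, which varied least, 0.92 for Plagl1 and between 0.93 and 0.99 for the other members, including 0.97 for Igf2. That of Dlk1, 0.93, rests on 150 and 193 UMIs. Among the members, over 25 lineages of tdTom- cells, levels of Igf2 and Peg3 were alike (Pearson r of 0.84 on log2 levels), as were those of Mest and Ndn (0.82), Peg3 and Peg10 (0.78), Igf2 and Slc38a4 (0.76) and Snrpn and Ndn (0.73), while Ndn and Peg10 were not (0.05). Among 8188 genes, those most like Igf2 were Cgnl1 (0.91), Acbd3 (0.89) and H19 (0.88). For Peg3 they were Igf2r (0.88), Krt8 (0.87) and Igf2 (0.84), for Ndn Dpysl2 (0.95), Armcx2 (0.94) and Mpdz (0.93), and for Mest Fkbp10 (0.87), Smarca2 (0.83) and Cnn3 (0.83). For the other members the closest genes reached 0.82 to 0.86, with Zfyve16 for Peg10, Myo9a for Snrpn, Pmp22 for Plagl1, Phldb2 for Impact, Tanc1 for Slc38a4 and Pofut2 for Dlk1, the last from 193 UMIs of Dlk1 in all tdTom- cells. The lineages share a library, so that these values describe likeness only. The 25 lineages include 50 shallow primordial germ cell-like tdTom- cells. These hold 53327 spliced UMIs in all, with a median of 1005.5 per cell, so that levels there are coarse.

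Lineages held mostly by 1 fraction give levels without a comparison. In the 1407 erythroid-like tdTom- cells the members were low, with 45.2 CPM of Snrpn, 32.6 CPM of Peg3, 18.5 CPM of Mest, 18.2 CPM of Igf2 and 17.9 CPM of Impact. In the 1326 blood progenitor-like tdTom+ cells, Impact had 81.4 CPM, Peg10 72.4 CPM, Peg3 66.1 CPM, Slc38a4 58.9 CPM, Snrpn 56.6 CPM, Mest 49.2 CPM and Igf2 23.3 CPM. For Mest both levels are under those that free RNA would give (61.2 CPM in tdTom+, 24.3 CPM in the other fraction). The estimate, taken from neural cells, is thus too high for Mest in these cells. Whether it is too high in other lineages was not tested. For Peg3 free RNA would give 40.8 and 14.9 CPM. In 75 extraembryonic ectoderm-like tdTom- cells, Peg3 had 517 CPM, Peg10 398 CPM, Slc38a4 198 CPM and Igf2 193 CPM, while Impact (18.7 CPM) and Ndn (8.29 CPM) were low.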

How the data were processed

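The authors mapped the reads with Cell Ranger 3.0.2 at its default mapping settings (mm10 and GRCm38, per the submitters' processing notes), called cells with emptyDrops, filtered them on counts and mitochondrial share, and ran velocyto to split the molecules into spliced and unspliced. The authors' deposited matrices hold raw UMI counts (0 values were not whole). Their gene totals of Cell Ranger are also counts, and the deposited percent of mitochondrial UMIs per cell had medians of 2.07% and 2.08%. The strand and multimapping settings of velocyto are not given in the sources used here. Doublet calls and cell types of the authors were not used here.

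The software was scanpy 1.11.5, leidenalg 0.10.2, scikit-learn 1.9.0, scipy 1.17.1, numpy 2.4.6, pandas 2.3.3 and matplotlib 3.10.9 under Python 3.11.15. Scrublet called 377 tdTom+ and 518 tdTom- doublets, which were removed, as was any cluster with over 50% such calls. Cells were clustered on 2472 variable genes without the 47 listed imprinted genes, with 50 components, 20 neighbours and a Leiden resolution of 1.5. A name needs 3 markers raised 2-fold, with 10 CPM added. UMIs were summed per lineage and fraction, with exact Poisson intervals for levels, exact conditional intervals for log2 folds and Clopper-Pearson intervals for shares (95%). Past 2-fold means a log2 fold of at least 1 in size with at least 100 UMIs over both fractions. Where a fold is compared across all genes in every lineage, 0.5 UMIs were added. Intervals and folds were tested on simulated Poisson counts. These hold counting error only, so that the test does not cover spread between cells or embryos. Coordinates are from GENCODE M21 (GRCm38), and promoter sequences from RefSeq (GRCm38.p6).

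Members and gene lists were chosen with earlier results of these data known. The text names all members, of each list at most 8 genes with the largest fold, and the 3 genes most like a member (for some the first only). Genes named for being past 0.5 in every lineage, as neighbours, or between the sides of the Igf2 cut were chosen after their values were seen. So were H19, Meg3, Peg12, Kcnq1ot1, Cdkn1c and Grb10 there, Kcnq1 and Tfpi2 in the unspliced counts, and Sgce and Mcts2 in their list. The thresholds of 0.5, of 1 Igf2 UMI per 10000, of 0.4 and of 300 CPM were also chosen after values were seen. Tried as alternatives were the layer, denominator, scaling, cell weight, thinning to 5000 UMIs, doublets, resolutions of 1 and 2.5, a floor of 30 UMIs, free-RNA subtraction and averaging within lineages, and, after the data had been seen, Igf2 cuts of 0.5 and 2, thresholds of 0.3 and 0.7 for genes higher in every lineage, and free-RNA subtraction there.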

Additional observations from a re-analysis of the deposited data

How the results depend on the processing

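With 1 library per fraction, no value here has a replicate check. No paired analysis was possible because each fraction has 1 library and no replicate number, and no replicate could be left out. Over the alternatives, the pairs of gene and lineage past 2-fold higher numbered 39 (free RNA subtracted) to 60 (resolution of 2.5) beside 48, those past 2-fold lower 7 to 10 beside 8, and the further imprinted genes past 2-fold 13 to 14 beside 14. The count over all kept cells was 6 of 10 members with both layers counted, the reduced denominator, cells weighted equally, thinning and doublets kept, and 2 (Peg10 and Impact) by the mean of the log2 folds within lineages. The other alternatives were not run for it. Higher in every lineage were 8 genes with 5 members at a threshold of 0.5. In alternatives chosen after seeing the data there were 12 genes with 5 members at 0.3, 4 with 2 at 0.7, and 5 with 2 after subtraction of free RNA. No member's median fold changed direction. It ran from 0.91 to 0.99 for Peg3, 1.02 to 1.11 for Peg10, 0.86 to 0.92 for Mest, 1.38 to 1.42 for Impact, 0.83 to 0.93 for Slc38a4, 0.60 to 0.89 for Plagl1, 0.23 to 0.30 for Snrpn, 0.11 to 0.19 for Ndn, -0.99 to -0.87 for Igf2 and -1.19 to -0.93 for Dlk1. With Igf2 cuts of 0.5 and 2 UMIs per 10000, chosen after seeing the data, 41.9% and 53.8% of tdTom+ cells lay under the cut, and the medians between the sides were 0.78 and 0.79 for H19, 0.59 and 0.62 for Snrpn and 0.39 and 0.53 for Ndn. At the cut of 0.5, Ndn was thus no longer over 0.4. Depth limits Plagl1 to 9 lineages, while Dlk1, read in 1, kept 1.17% of its Cell Ranger UMIs in the spliced matrix.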

Other observations

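Of the 23 genes lower by over 0.5 in log2 fold in every lineage, 15 lie on chromosome 3, which holds no member. Along that chromosome, 18 consecutive genes read in at least 15 lineages, from Pik3ca to Sclt1 (chr3:32397671-41742514, GRCm38), all had a median log2 fold under -0.5, with a median of -0.96 over the 18 genes. Among them were Anxa5 (-1.27), Jade1 (-1.16), Pik3ca (-1.06), Ndufb5 (-1.05) and Actl6a (-1.02). It was the only such run on an autosome by a running median over 11 genes. Beside 4 genes of the maternal list, the others were Xist (-6.42), which is read from the inactive X of female cells, the embryonic globin Hba-x (-3.18), Akr1e1 (-1.87) and H13 (-1.57). The lists used here do not hold every imprinted gene, so that genes outside them need not be unimprinted. In neural cells, Hba-x stood at 46.4 CPM in the tdTom+ and 490.6 CPM in the tdTom- library, and over all kept cells at 1199 and 10579 CPM. The part of free RNA in its fold within lineages was not tested. Erdr1, listed on chromosome Y, was higher in every lineage (1.57). The part of sex in its fold was not tested. These genes were chosen after their values were seen.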
